A study of Mus musculus with 24 samples.

Results

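Among 24 small RNA libraries from the subcutaneous fat of mice, 5 held several times more of miR-1a and miR-133, miRNAs that striated muscle fibres make, than the rest did on average. They were selected by value and not by any label. A library qualified if it had under 2000 CPM, or counts per 1000000 miRNA reads of the library, of the lymphocyte miRNA miR-150-5p and at least 1600 CPM of the muscle miRNA miR-1a-3p, taken as the mean over the genomic copies of miR-1a-3p. Of the 24 libraries, 17 met the limit on miR-150-5p, and 5 of those 17 met the limit on miR-1a-3p. These 5 are called muscle-rich here, the remaining 12 of the 17 are called the other libraries, and the 7 libraries above the limit on miR-150-5p are called lymphocyte-rich. The muscle-rich library nearest to the threshold had 2371 CPM of miR-1a-3p, and the nearest library below it had 1145 CPM. Because miR-1a-3p and miR-150-5p made the selection, their values are a description and support nothing.

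The study asked how exercise training affects miRNAs in subcutaneous fat. All mice were female and ate chow, and they were trained kinase dead, sedentary kinase dead, trained wild type or sedentary wild type, with 6 libraries in each of the 4 groups. Training consisted of treadmill sessions of 1 h, held 5 days per week over 6.5 weeks at 16 m/min, in mice that also had a running wheel. The labels name neither the kinase, the cells in which it is inactive, the strain nor the age of the mice, and they do not say whether each library came from a separate animal, so the p-values below measure the spread between libraries.

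Thin sheets of skeletal muscle run beneath the skin next to subcutaneous fat pads. Muscle cells carry a small group of miRNAs, often called myomiRs, that the muscle transcription factors switch on. Most other tissues make them at very low levels. miR-1 and miR-133a are made from shared primary transcripts in all striated muscle, where miR-1 is known to promote differentiation and miR-133a to keep muscle precursors dividing. miR-206, a close relative of miR-1, and miR-133b, a close relative of miR-133a, are made together in skeletal muscle, and miR-206 is known for its part in muscle regeneration and at the nerve-muscle junction. miR-208a, miR-208b and miR-499 lie inside genes for myosin heavy chains and are typical of heart muscle and slow skeletal fibres.

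The mature sequences below are shown because they separate the members that were high in the muscle-rich libraries from those that were not. Each is written 5′ to 3′ with the seed, bases 2 to 8, in capitals, and comes from RefSeq on GRCm38.p6. The seed is the part that pairs with target mRNAs. miR-206-3p and miR-133b-3p come from a single locus of chromosome 1, in exons of the long noncoding RNA gene Gm28653, at chr1:20679055-20679076 and chr1:20682834-20682855, both on the plus strand.
miR-206-3p: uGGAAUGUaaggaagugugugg
miR-133b-3p: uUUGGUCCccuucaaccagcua
miR-208b-3p comes from an intron of Myh7, the gene of the slow myosin heavy chain, at chr14:54975710-54975731 on the minus strand, and miR-499-5p comes from an intron of the related gene Myh7b at chr2:155622893-155622913 on the plus strand.
miR-208b-3p: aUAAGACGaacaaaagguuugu
miR-499-5p: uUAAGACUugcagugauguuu
The seeds of miR-206-3p and miR-133b-3p are unlike one another and unlike the other seeds. Those of miR-208b-3p and miR-499-5p resemble one another without being identical.

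The muscle-rich libraries were sedentary kinase dead replicate 2, sedentary wild type replicate 2 and trained wild type replicates 3, 5 and 6. They held 6.10 to 13.2 M reads, against 1.60 to 23.6 M in the other 12 libraries. Their mean total was 9.77 M reads, against 8.67 M in the other libraries, and the difference of log2 totals was 0.65 (exact two-sided permutation test over 6188 regroupings, p = 0.306). At these depths, 3 reads stand for 0.228 to 0.491 CPM in the muscle-rich libraries and for 0.127 to 1.87 CPM in the other libraries. The level of miR-150-5p ran from 595 to 911 CPM in the muscle-rich libraries and from 497 to 889 CPM in the other libraries.

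miR-1a-3p, the miRNA used for the selection, stood at 3479 CPM in sedentary kinase dead replicate 2, 3139 CPM in sedentary wild type replicate 2, and 2717, 2640 and 2371 CPM in trained wild type replicates 3, 6 and 5. In the other libraries it ran from 302 to 1145 CPM with a median of 669 CPM, and in the lymphocyte-rich libraries from 227 to 524 CPM. The miRNA was therefore present in every library of this fat, and what set the muscle-rich libraries apart was its amount. In bulk tissue, more muscle cells in a sample, more muscle RNA per cell and expression of the miRNA in other cells cannot be told apart.

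miR-133a-3p, which is transcribed together with miR-1a, stood at 479 CPM in sedentary kinase dead replicate 2, 341 CPM in sedentary wild type replicate 2, and 341, 211 and 220 CPM in trained wild type replicates 3, 6 and 5. In the other libraries it ran from 22.8 to 124 CPM with a median of 71.9 CPM. All 5 muscle-rich libraries lay above all 12 other libraries. The means were 318 ± 110 CPM (SD, n = 5) in the muscle-rich libraries and 70.6 ± 28.1 CPM (SD, n = 12) in the other libraries, a 4.51-fold difference. Since a myomiR chose the libraries, this and the differences of the other myomiRs are given without a test.

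The passenger arm, miR-133a-5p, showed the same separation at a far lower level. It stood at 7.10 CPM in sedentary kinase dead replicate 2, 9.17 CPM in sedentary wild type replicate 2, and 10.1, 5.21 and 7.62 CPM in trained wild type replicates 3, 6 and 5, against 0.656 to 3.14 CPM in the other libraries. The ratio of means was 5.20. The opposite arm of one miR-1a hairpin, miR-1a-1-5p, had 64 reads in all 24 libraries, and at 0.608 to 1.52 CPM in the muscle-rich libraries and 0 to 0.437 CPM in the other libraries it lay near the limit of detection.

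miR-133b-3p, the skeletal relative of miR-133a, stood at 67.4 CPM in sedentary kinase dead replicate 2, 47.4 CPM in sedentary wild type replicate 2, and 48.3, 29.0 and 26.1 CPM in trained wild type replicates 3, 6 and 5. In the other libraries it ran from 2.84 to 19.4 CPM with a median of 11.7 CPM. The groups did not overlap, and the means of 43.6 ± 16.8 CPM (SD, n = 5) in the muscle-rich libraries and 11.3 ± 5.97 CPM (SD, n = 12) in the other libraries differed 3.85-fold. Whether this count held some reads of miR-133a-3p, its close relative, was not tested.

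miR-206-3p, the skeletal muscle member of the miR-1 family, followed another order. It stood at 32.5 CPM in sedentary kinase dead replicate 2, 36.2 CPM in sedentary wild type replicate 2, and 59.4, 95.3 and 46.2 CPM in trained wild type replicates 3, 6 and 5. In the other libraries it ran from 2.08 to 51.3 CPM with a median of 15.9 CPM. The groups overlapped, since the highest of the other libraries, trained kinase dead replicate 4, lay above 3 of the 5 muscle-rich libraries. The means were 53.9 ± 25.4 CPM (SD, n = 5) in the muscle-rich libraries and 19.6 ± 15.5 CPM (SD, n = 12) in the other libraries, a 2.75-fold difference. The fitted log2 difference was 1.42, and 1.07 without trained wild type replicate 6, which held the highest value.

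miR-499-5p, the myomiR of slow fibres and heart, did not separate the libraries. It stood at 4.14 CPM in sedentary kinase dead replicate 2, 2.62 CPM in sedentary wild type replicate 2, and 9.49, 7.07 and 7.89 CPM in trained wild type replicates 3, 6 and 5. In the other libraries it ran from 3.12 to 10.1 CPM. Its mean was 6.24 ± 2.81 CPM (SD, n = 5) in the muscle-rich libraries and 6.48 ± 2.20 CPM (SD, n = 12) in the other libraries, and of these 17 libraries the one with the least of it was muscle-rich. The fitted log2 difference was -0.11 with a 95% interval of -0.63 to 0.41, and it was 0.03 without sedentary wild type replicate 2. The interval is a description, because a myomiR chose the libraries.

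miR-208a and miR-208b, typical of heart muscle and slow fibres, lay at or near 0. miR-208b-3p had 9 reads in all 24 libraries, no more than 2 in any library, and was at 0 in 17 libraries. miR-208a had 2 reads of its 5p arm and 1 read of its 3p arm. Of the 21 loci on the list of striated muscle miRNAs, 10 passed the filter on low counts, and a locus could pass through the muscle-rich libraries alone.

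**Figure D1:**
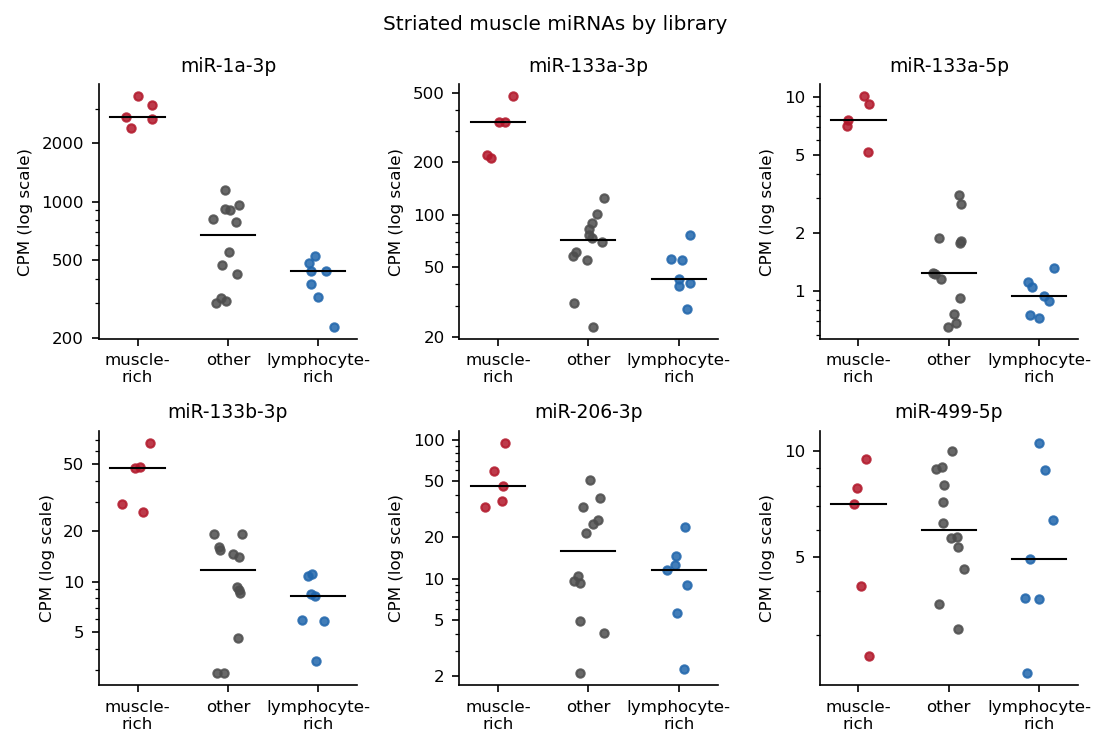
Levels of 6 striated muscle miRNAs in CPM on log axes, 1 point per library and a bar at the median, for the 5 muscle-rich, 12 other and 7 lymphocyte-rich libraries (points are spread sideways for clarity). The muscle-rich points lie above all others for miR-1a-3p, miR-133a-3p, miR-133a-5p and miR-133b-3p, overlap the other libraries for miR-206-3p, and lie among them for miR-499-5p.

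All loci of the striated muscle list together took 0.763% to 1.15% of the reads in the muscle-rich libraries, with a median of 0.898%. They took 0.0971% to 0.375% in the other libraries, with a median of 0.221%, and 0.0757% to 0.174% in the lymphocyte-rich libraries. These shares count some reads more than once, because a miRNA and its opposite-strand partner are separate loci in the counts. miR-1b-5p is such a partner: it overlaps Mir1a-2 on the opposite strand, and both loci held exactly 235533 reads over the 24 libraries, so its value is that of miR-1a-3p and not evidence of a further muscle miRNA. The copies of a miRNA are separate loci too, and whether their reads were split between copies or counted at each is not known.

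The locus Mir1a-1 lies at chr2:180389096-180389117 and Mir133a-2 at chr2:180398437-180398458, both on the plus strand and between annotated genes on GRCm38, the mm10 build of the counts. Their copies Mir1a-2 and Mir133a-1 lie on chromosome 18 in an intron of the host transcript Mir133a-1hg, antisense to an intron of Mib1. The copies of miR-133a-3p held 25823 reads at Mir133a-2 and 25506 at Mir133a-1 over all libraries, and which copy was transcribed cannot be read from identical mature sequences.

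Relative to miR-1a-3p, the amounts of its companions overlapped between the muscle-rich and other libraries. For every 100 CPM of miR-1a-3p there were 7.97 to 13.8 CPM of miR-133a-3p in the muscle-rich libraries, 6.71 to 19.5 in the other libraries and 9.30 to 14.6 in the lymphocyte-rich libraries. For miR-133b-3p the same ratio ran from 1.10 to 1.94 in the muscle-rich libraries and from 0.924 to 4.55 in the other libraries. For miR-206-3p it ran from 0.935 to 3.61 in the muscle-rich libraries and from 0.687 to 6.52 in the other libraries. All 3 ranges overlapped, and no test was made of them because miR-1a-3p chose the libraries. The level of miR-1a-3p is a mean over its copies. If reads were split between copies, the ratios of miR-133b-3p and miR-206-3p to all miR-1a-3p would be lower in every library.

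Among the muscle-rich libraries themselves, the balance between the members of the miR-206 and miR-133b locus varied. miR-206-3p per miR-133b-3p was 1.23, 3.29 and 1.77 in trained wild type replicates 3, 6 and 5, against 0.483 in sedentary kinase dead replicate 2 and 0.765 in sedentary wild type replicate 2. The trained libraries of these 5 thus all lay above the sedentary ones, a pattern seen after the values and over too few libraries to test. In the other libraries the ratio ran from 0.649 to 5.54 in trained mice and from 0.452 to 3.36 in sedentary mice, and these ranges overlapped. Reads of miR-133a-3p counted as its close relative miR-133b-3p would alter the ratio, and this was not tested.

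The 7 lymphocyte-rich libraries did not enter the selection on miR-1a-3p and allowed a test of whether its companions followed it. Within these 7 libraries, where miR-1a-3p ran from 227 to 524 CPM, miR-133a-3p followed it with Pearson's r = 0.895 on the log2 scale (exact permutation over 5040 pairings, p = 0.00516, adjusted p = 0.0138) and Spearman's rho = 0.929 (exact permutation p = 0.00675, adjusted p = 0.0234). The tests were two-sided, and adjusted p-values follow Benjamini and Hochberg over the 8 relations computed, 4 here and 4 in the 12 other libraries. The latter 4 are given below as a description only. Counting them made the adjusted p for miR-133a-3p smaller than an adjustment over the 4 relations here would. Without the 2 libraries farthest from the median of miR-1a-3p, r was 0.822 over 5 libraries (exact permutation p = 0.0833, adjusted p = 0.167), which no longer passed, at a smaller number of libraries. For miR-133b-3p r was 0.733 with rho = 0.536 (exact permutation p = 0.0621 and 0.236, adjusted p = 0.0994 and 0.377), which did not pass. miR-206-3p, with r = 0.606 and rho = 0.464 (exact permutation p = 0.151 and 0.302, adjusted p = 0.202 and 0.403), and miR-499-5p, with r = 0.551 and rho = 0.393 (exact permutation p = 0.203 and 0.396, adjusted p = 0.232 and 0.452), did not pass either.

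In the 12 other libraries the same relations are a description, with no p, because miR-1a-3p itself placed these libraries below the threshold. For miR-206-3p r was 0.845 and rho 0.734, and without the 2 libraries farthest from the median of miR-1a-3p r was 0.832. For miR-133a-3p r was 0.784 and rho 0.755, and without the 2 farthest libraries r was 0.629. For miR-133b-3p r was 0.72 and rho 0.524, and without the 2 farthest libraries r was 0.465. miR-499-5p gave r = 0.228 and rho = 0.189, and r = 0.588 without the 2 farthest libraries. No r is given over all 24 libraries, because the muscle-rich libraries form a separate cluster.

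**Figure D2:**
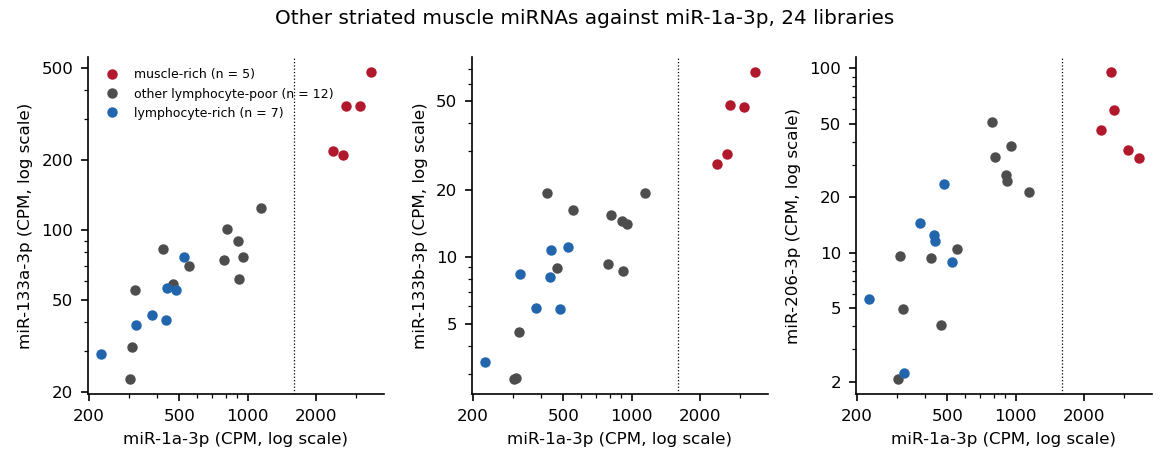
miR-133a-3p, miR-133b-3p and miR-206-3p against miR-1a-3p, all in CPM on log axes, 1 point per library for the 5 muscle-rich, 12 other and 7 lymphocyte-rich libraries, with a dotted line at the 1600 CPM of miR-1a-3p used for the selection. The muscle-rich libraries lie past the gap between 1145 and 2371 CPM, and the order of miR-206-3p among them is not that of miR-1a-3p.

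The labels took no part in the selection. Of the lymphocyte-poor libraries, 1 of 8 from kinase dead mice and 4 of 9 from wild type mice were muscle-rich (two-sided Fisher's exact test, p = 0.294, adjusted over the 2 labels 0.588). By training, 3 of 8 from trained mice and 2 of 9 from sedentary mice were muscle-rich (Fisher's exact test, p = 0.62, adjusted p = 0.62). By group the counts were 0 of 4 in trained kinase dead, 1 of 4 in sedentary kinase dead, 3 of 4 in trained wild type and 1 of 5 in sedentary wild type. The trained wild type libraries of this class ran from 906 to 2717 CPM of miR-1a-3p and the trained kinase dead libraries from 302 to 1145 CPM. With so few libraries, neither label was shown to go with the muscle miRNAs, and neither was shown to be unrelated.

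Outside the striated muscle list and miR-150-5p, no miRNA was called different between the muscle-rich and the other libraries. edgeR's quasi-likelihood test called 0 of 611 tested loci, or 0.0%, at an adjusted p under 0.05, and at an unadjusted p under 0.05 it found 15, of which 8 were higher and 7 lower, where evenly spread p-values would give 30.6. DESeq2 also called 0, with 21 at an unadjusted p under 0.05. In none of the 611 loci, again 0.0%, did the values of the 5 muscle-rich libraries lie wholly above or below those of the 12 other libraries. The count at an unadjusted p under 0.05 was 26 without sedentary kinase dead replicate 2 and 35 without trained wild type replicate 6, with 0 called in both fits.

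The counts allowed fairly narrow limits for abundant miRNAs. Of 365 tested loci with a mean of at least 10 CPM, 347 had a 95% interval that lay within a 2-fold difference in either direction, and the median half-width of the interval was 0.33 on the log2 scale. In the other 18 the interval reached a 2-fold difference, so for those a difference of that size was not excluded by the interval. The fitted log2 differences of the 365 ran from -0.75 for miR-151-5p to 0.58 for miR-3071-3p, whereas those of miR-133a-3p at Mir133a-2 and of miR-133b-3p were 2.18 and 1.97.

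**Figure D3:**
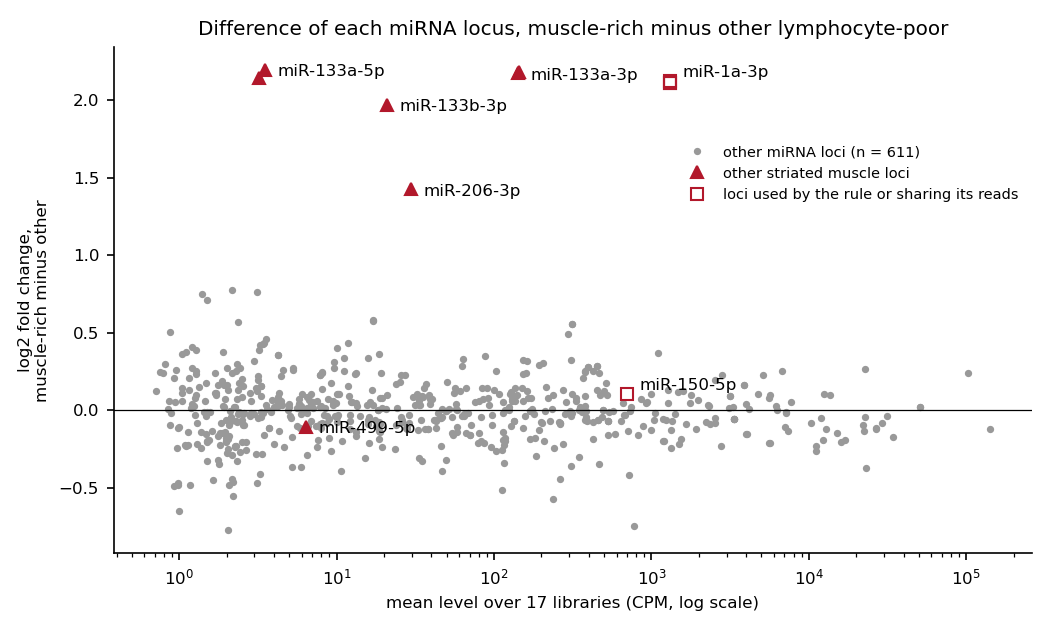
Log2 fold change of each miRNA locus, muscle-rich minus other lymphocyte-poor libraries, against its mean level over the 17 libraries in CPM (log axis); grey points are the 611 tested loci, triangles are striated muscle loci and open squares are loci used by the selection or sharing its reads. The striated muscle triangles other than miR-499-5p stand between 1.42 and 2.19, and no grey point reaches 1.

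The miRNAs nearest to a difference did not pass the test. On the higher side, the smallest p-values among those of at least 10 CPM belonged to miR-3071-3p and miR-136-5p of the imprinted Dlk1-Dio3 region. miR-136-5p lies at chr12:109595331-109595352, with a mean of 22.4 ± 7.09 CPM in the muscle-rich libraries (SD, n = 5) and 14.7 ± 4.29 CPM in the other libraries (SD, n = 12). Its log2 difference was 0.58 with a standard error of 0.22 (edgeR, adjusted p = 0.676). miR-3071-3p overlaps it on the opposite strand within an exon of Rtl1 and gave nearly the same values, so the pair counts as a single measurement. miR-154-5p, in an intron of the noncoding gene Mirg of the same region, averaged 14.5 ± 3.51 CPM in the muscle-rich libraries and 10.6 ± 2.96 CPM in the other libraries (edgeR, adjusted p = 0.855).

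Next came miR-20a-5p, a member of the miR-17-92 cluster known for driving proliferation, at 1314 ± 340 CPM in the muscle-rich libraries and 1009 ± 240 CPM in the other libraries, a log2 difference of 0.37 (edgeR, adjusted p = 0.995). miR-194-5p at Mir194-2, a miRNA of liver and gut, had a log2 difference of 0.30 (edgeR, adjusted p = 0.995). On the lower side stood miR-669c-5p, from an intron of Sfmbt2, at 38.4 ± 7.81 CPM in the muscle-rich libraries and 49.9 ± 8.81 CPM in the other libraries, a log2 difference of -0.39 (edgeR, adjusted p = 0.995). The other 4 on that side were let-7 loci.

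Below 10 CPM, 3 loci had p-values among the smallest, and they are named after their values were seen. miR-135a-5p at Mir135a-2 averaged 4.50 ± 2.06 CPM in the muscle-rich libraries and 2.51 ± 0.915 CPM in the other libraries (edgeR, log2 difference 0.77, adjusted p = 0.476). miR-23b-5p averaged 1.36 ± 0.319 CPM in the muscle-rich libraries and 2.33 ± 1.18 CPM in the other libraries (edgeR, log2 difference -0.78, adjusted p = 0.476). miR-7116-3p averaged 2.36 ± 0.300 CPM in the muscle-rich libraries and 1.16 ± 0.697 CPM in the other libraries (edgeR, log2 difference 0.71, adjusted p = 0.679).

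Among miRNAs with a mean of at least 10 CPM outside the muscle list, those whose level was most like that of miR-1a-3p over the 17 libraries were miR-872-5p with Spearman's rho 0.591, miR-574-3p with 0.525 and miR-382-5p with 0.517. They were picked as the highest of many, so no p is given. miR-872-5p stood at 374 to 522 CPM in the muscle-rich libraries and 209.9 to 444 CPM in the other libraries, ranges that overlapped.

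miRNAs that muscle shares with other tissues were not called. They are made in muscle fibres and in red cells or fat as well, and all 9 of their loci passed the filter. By sign 8 were higher and 1 lower, with a median log2 difference of 0.28. Over all 611 loci 294 were higher and 316 lower, with a median of -0.01. miR-486-5p, abundant in muscle and in red cells, averaged 447 ± 258 CPM in the muscle-rich libraries and 375 ± 151 CPM in the other libraries, with a log2 difference of 0.28 that was -0.13 without trained wild type replicate 6. miR-378a-3p, whose hairpin lies in the coactivator gene Ppargc1b, averaged 14339 ± 2582 CPM in the muscle-rich libraries and 13237 ± 1996 CPM in the other libraries. miR-378d had a log2 difference of -0.42. Some loci of the list are copies or opposite-strand partners of one another, so they are fewer than 9 separate measurements.

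miRNAs of muscle stem cells and muscle differentiation were 5 higher and 3 lower of 8 tested, with a median of 0.05 and 0 called. miR-503-5p, which is known to slow the cell cycle as muscle precursors differentiate, averaged 73.9 ± 14.1 CPM in the muscle-rich libraries and 58.8 ± 18.5 CPM in the other libraries. miR-31-5p, found in quiescent muscle stem cells, averaged 97.3 ± 23.7 CPM in the muscle-rich libraries and 124 ± 65.7 CPM in the other libraries. Neither passed the test (edgeR, adjusted p = 0.995 for both).

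Markers of the other cells that a fat sample can hold also gave 0 calls in every list, and the summed levels of the 2 groups overlapped in each. The red cell miRNA miR-451a averaged 2019 ± 899 CPM in the muscle-rich libraries and 1971 ± 930 CPM in the other libraries. All 3 red cell loci were higher, with log2 differences from 0.06 to 0.49 and a median of 0.32. The smallest, 0.06 for miR-451a, was -0.17 without trained wild type replicate 6. Among the lymphocyte miRNAs 4 were higher and 9 lower of 13. Of these miR-142a-3p averaged 407 ± 201 CPM in the muscle-rich libraries and 271 ± 82.7 CPM in the other libraries (edgeR, log2 difference 0.56, adjusted p = 0.995). With 1 muscle-rich library left out, its log2 difference ran from 0.21 without sedentary wild type replicate 2 to 0.73 without trained wild type replicate 6. The other arm, miR-142a-5p, averaged 755 ± 301 CPM in the muscle-rich libraries and 734 ± 160 CPM in the other libraries.

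miR-223-3p of myeloid cells averaged 176 ± 24.7 CPM in the muscle-rich libraries and 173 ± 34.0 CPM in the other libraries. The endothelial miR-126a-3p averaged 52379 ± 3299 CPM in the muscle-rich libraries and 50501 ± 8620 CPM in the other libraries, and miR-143-3p, abundant in smooth muscle and in fat, averaged 134974 ± 10710 CPM in the muscle-rich libraries and 145142 ± 14985 CPM in the other libraries. The endothelial list had 4 of 4 loci higher with a median of 0.09, and the smooth muscle list had 2 higher and 2 lower. In the muscle-rich libraries the endothelial list summed to 102933 to 119834 CPM, and miR-126a-3p alone held 47808 to 56096 CPM. Loci of miR-126a and miR-126b may share reads, so the 4 may be fewer separate measurements. The fitted log2 differences were 0.007 for miR-223-3p (standard error 0.131), 0.022 for miR-126a-3p (standard error 0.141) and -0.12 for miR-143-3p (standard error 0.097).

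The markers of skin and other epithelia had 8 higher and 10 lower of 18 loci with a median of -0.03. miR-205-5p averaged 1583 ± 410 CPM in the muscle-rich libraries and 1687 ± 720 CPM in the other libraries, and miR-200a-3p averaged 10043 ± 2337 CPM in the muscle-rich libraries and 10530 ± 1978 CPM in the other libraries. miR-203-3p averaged 2815 ± 459 CPM in the muscle-rich libraries and 2434 ± 492 CPM in the other libraries. The nerve list had 9 higher and 4 lower of 13, with miR-338-3p at 127 ± 85.8 CPM in the muscle-rich libraries and 136 ± 72.6 CPM in the other libraries. The stromal list had 6 higher and 2 lower of 8, with miR-214-3p at 677 ± 102 CPM in the muscle-rich libraries and 656 ± 164 CPM in the other libraries. The liver and gut list had 2 higher and 4 lower of 6.

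Of 16 tested loci on the white adipocyte list, which holds miRNAs abundant in fat cells, 5 were higher and 11 lower, with a median log2 difference of -0.09 and 0 called. The summed level of all 18 loci of the list, tested or not, was 92926 to 123531 CPM in the muscle-rich libraries, against 106486 to 129542 CPM in the other libraries. miR-148a-3p, which rises as fat cells differentiate, averaged 31465 ± 4090 CPM in the muscle-rich libraries and 35144 ± 2792 CPM in the other libraries, and miR-103-3p at Mir103-1, known for its part in insulin sensitivity of fat, averaged 5820 ± 831 CPM in the muscle-rich libraries and 5451 ± 586 CPM in the other libraries. The brown and beige list had 9 higher and 4 lower of 13 with a median of 0.03, and miR-193b-3p averaged 303 ± 51.5 CPM in the muscle-rich libraries and 307 ± 72.6 CPM in the other libraries. The part of these cell types in the levels of the muscle miRNAs was not tested.

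The let-7 family, which is known for promoting differentiation and is among the most abundant miRNAs of the tissue, gave 7 loci higher and 18 lower of 26, with a median of -0.08 and 0 called. Over all 611 tested loci 15 had an unadjusted p under 0.05. Of the 26 let-7 loci 4 did, and all 4 were lower. let-7e-5p averaged 1196 ± 185 CPM in the muscle-rich libraries and 1397 ± 158 CPM in the other libraries (edgeR, log2 difference -0.24, adjusted p = 0.995). let-7c-5p at Mirlet7c-1 averaged 9766 ± 2158 CPM in the muscle-rich libraries and 11643 ± 1651 CPM in the other libraries (edgeR, log2 difference -0.27, adjusted p = 0.995). With 1 muscle-rich library left out, the log2 difference ran from -0.305 to -0.19 for let-7e-5p and from -0.381 to -0.183 for let-7c-5p. Both were smallest in size without sedentary wild type replicate 2. let-7a-5p is counted at more than 1 copy and gave a log2 difference of -0.21 at both Mirlet7a-1 and Mirlet7a-2. Copies of a let-7 miRNA have identical mature sequences, so these loci are fewer measurements than their number.

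The Dlk1-Dio3 cluster, an imprinted group of miRNAs expressed from the maternal chromosome, had 62 tested loci, of which 45 were higher and 17 lower, with a median of 0.06 and 0 called. Its summed level was 3539 to 4546 CPM in the muscle-rich libraries and 2770 to 6378 CPM in the other libraries. These loci are made from shared transcripts and move together, so the count by sign is not a count of independent loci. miR-127-3p, an abundant member, averaged 1301 ± 137 CPM in the muscle-rich libraries and 1360 ± 451 CPM in the other libraries.

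**Figure D4:**
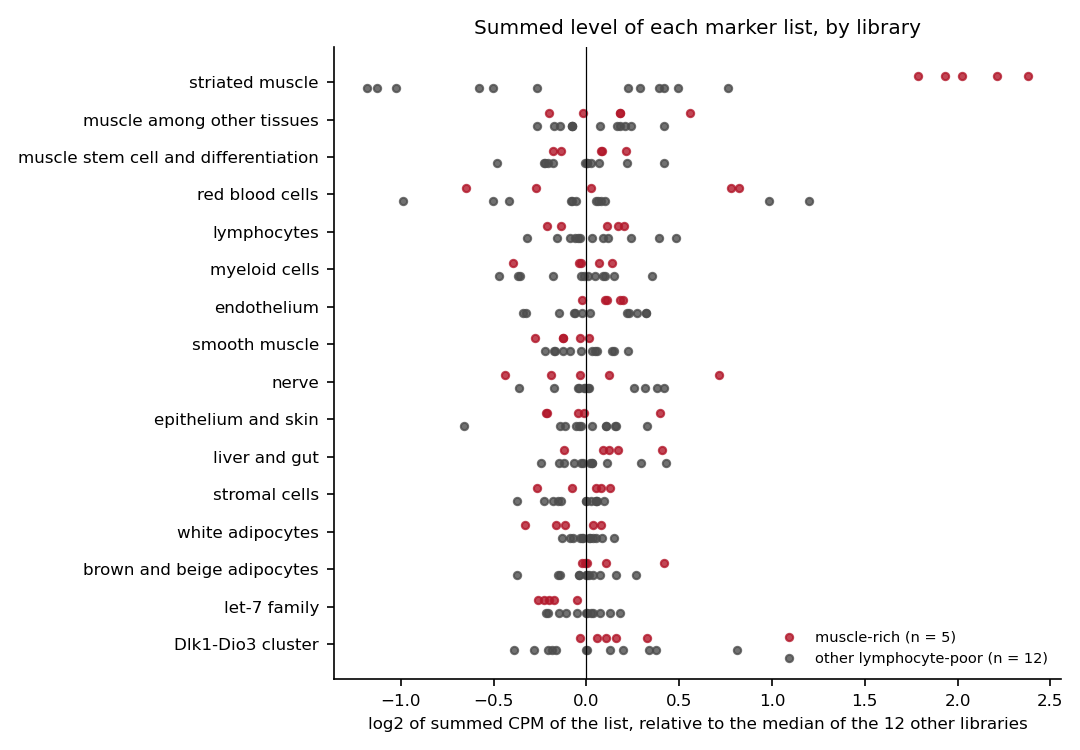
Summed level of each marker list in each library as the log2 of its CPM relative to the median of the 12 other libraries, 1 point per library, with the 5 muscle-rich libraries drawn above the 12 other libraries in each row. The striated muscle list separates the groups, as the selection fixes, and the points of the groups overlap in the other 15 lists. The lymphocyte list includes miR-150-5p, which the selection limited in both groups.

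Over the 611 loci together, the first 4 principal components of log2 CPM held 23.9%, 16.5%, 10.1% and 8.83% of the variance, and on each of them the ranges of the muscle-rich and other libraries overlapped.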

How the data were processed

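For each of 2045 mature miRNA loci (mm10) the authors deposited a raw count per library, not normalized. The submitters' processing notes name CASAVA 1.8.2, Trim Galore, featureCounts and Bowtie2, without settings for strand or multiple mapping. RNA came from a TRIzol extraction and libraries from the NEBNext small RNA kit, per the labels' protocols.

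Loci were named by coordinates from RefSeq (1670), by accession (4) or from GENCODE hairpins (371). CPM was the count divided by the column total. No feature under the name miR-124 was found. The main test was edgeR 4.0.16 (R 4.3.3), quasi-likelihood, TMM factors, filterByExpr, on the 17 lymphocyte-poor libraries. Adjusted p-values follow Benjamini and Hochberg over the 622 features kept, of which 611 lie outside the striated muscle list and miR-150-5p. Its script was tested on simulated data. DESeq2 1.42.0 was an alternative. Correlations used log2(CPM + 1) and scipy 1.17.1. The limit of detection was set at 3 reads, and limits and intervals cover counting error and the spread between these libraries only.

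Replicate numbers follow accession order and pair nothing. The libraries, members and lists were chosen with earlier results of these data known. Named miRNAs were all of the striated muscle list, the defining markers of the other lists, the 5 with the smallest p of at least 10 CPM in each direction, and the 3 of at least 10 CPM with the highest rank correlation with miR-1a-3p. Other normalizations, no filter, genotype and training as terms, summed copies, miR-1a-3p as a continuous term, all 24 libraries and leaving out each muscle-rich library were tried.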

Additional observations from a re-analysis of the deposited data

Results flagged for a closer look

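Of 67 sets of values tested in the 5 muscle-rich libraries, 3 held a library that stood apart from the other 4 by Dixon's criterion, which chance alone meets in about 1 in 20. let-7e-5p was at 873.7 CPM in sedentary wild type replicate 2, against 1225 to 1332 CPM in the other muscle-rich libraries. miR-135a-5p at Mir135a-2 was at 8.047 CPM in trained wild type replicate 3, against 2.812 to 4.096 CPM in the others. miR-503-5p was at 49.1 CPM in trained wild type replicate 6, against 76.78 to 82.9 CPM in the others.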

How the results depend on the processing

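No tested locus was called in any of the 14 alternative fits, whose smallest adjusted p was 0.0734, with only libraries as deep as the muscle-rich ones, an alternative chosen after seeing the data. The count at an unadjusted p under 0.05 ran from 10 to 74 (74 of 1620 loci with no filter, 24 with genotype and training as terms) and the median log2 difference from -0.045 to 0.009. Of 45 named miRNAs outside the muscle list, 16 changed sign in at least 1 fit, none of them called. The correlations with miR-1a-3p were repeated without the 2 libraries farthest from its median. Then r was 0.822 for miR-133a-3p, -0.149 for miR-206-3p and -0.191 for miR-499-5p in the lymphocyte-rich libraries, and 0.629 for miR-133a-3p, 0.465 for miR-133b-3p, 0.832 for miR-206-3p and 0.588 for miR-499-5p in the other libraries. On linear CPM, r for miR-133b-3p in the other libraries was 0.593. With 1 muscle-rich library left out, p for membership ran from 0.0885 to 0.569 by genotype and from 0.569 to 1 by training, and p for totals from 0.249 to 0.452. With a threshold of 1000 CPM, p for membership was 0.62 by genotype and 0.335 by training, and on linear totals p was 0.764. The 5 libraries against 12 limit what could be seen for scarce miRNAs, since 3 reads stand for up to 1.87 CPM in the shallowest library.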
